A study of Mus musculus with 6 samples.

Results

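Pck1, G6pc, Fbp1, Tat, Pcx, Gys2, Pygl, Slc2a2 and Slc37a4 were chosen by name as genes through which liver makes, stores and releases glucose. They were found in the deposited table by their Ensembl identifiers and made up 9 of the 52550 genes listed there. RNA was sequenced from GFP+ cells sorted by flow cytometry from dissociated embryonic livers of CD-1 mice of the Sox9-GFP genotype, with 3 libraries from each stage, E16.5 and E18.5, called replicates A, B and C. Every library came from pooled livers, the mice of both stages carried the same reporter, and haematopoietic cells had been removed with magnetic beads before sorting. The reporter marks cells that express Sox9, the transcription factor of the ductal plate and bile ducts, so the sort also keeps any hepatoblast with Sox9. The sample labels give embryonic days 16 and 18, and the stages of the study's methods, E16.5 and E18.5, are used here.

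Fetal liver receives glucose from the mother across the placenta and lays down glycogen late in gestation. At birth the supply stops, glycogen is broken down, and gluconeogenesis begins under glucagon, glucocorticoids and cAMP. Pcx, Pck1, Fbp1 and G6pc catalyse the steps that glycolysis cannot run backwards, Gys2 and Pygl build and degrade liver glycogen, and Slc37a4 and Slc2a2 carry glucose-6-phosphate and glucose across membranes. In the grown liver these are genes of hepatocytes, whereas the sorted cells are labelled cholangiocytes, the epithelium of the bile ducts.

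G6pc, the catalytic subunit of glucose-6-phosphatase, and Slc2a2, the glucose transporter GLUT2, rose from E16.5 to E18.5. G6pc passed the test in 14 of 14 alternative settings and Slc2a2 in 13. Gys2, Pygl and Slc37a4 fell, though each passed the test in only 8 of 14 alternative settings. Of the 6 fits that left out 1 library, Gys2 and Pygl passed in 2 and Slc37a4 in 1. Pck1, Tat, Fbp1 and Pcx did not pass the test, and in 3 of these 4 genes leaving out a single E18.5 library changed the outcome. Values are transcripts per 1000000 transcripts (TPM), which are scaled by gene length and by the total of each library, so levels can be compared between genes. The stages were compared with limma on log2(TPM + 1) over 22452 genes, those whose mean reached 1 TPM, and a gene was called at a Benjamini-Hochberg adjusted p under 0.05. Of all genes tested 31.2% were called, 26% higher and 5.22% lower at E18.5. Of the 9 genes 5 were called, with 2 higher and 3 lower, and the same 5 were those whose stages did not overlap, a pattern seen in 53.3% of all genes. The median log2 fold change was 0.15 over the 9 genes and 0.42 over all genes tested. Median-of-ratios scaling between libraries moved the median of all genes to 0.02 and the share of higher genes among those called from 83.3% to 39.5%, and 17.2% of the genes were then called. With that scaling 4 of the 9 genes were called, 1 higher and 3 lower, and Slc2a2 was no longer called. Fold changes are therefore given also as the distance from the median of all genes.

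The libraries held transcripts of markers of several cell types. Of 12 markers of cholangiocytes, among them Sox9, Krt19, Epcam and Spp1, 9 were called higher at E18.5. The summed level of the 12, 739 to 2496 TPM at E16.5, reached 8082 to 13944 TPM at E18.5. Spp1 alone made up most of that sum, at 469 to 1767 TPM at E16.5 and 6629 to 12121 TPM at E18.5. Of 12 markers of hepatoblasts and hepatocytes, among them Alb, Afp and Ttr, 6 were called lower, and each was above 0 in every library. Together they took 18.4% to 23.5% of all TPM in the E16.5 libraries and 4.50% to 10.7% in the E18.5 libraries, lowest in E18.5 replicate B. All 12 had their lowest E18.5 value in that library, where erythroid markers were also highest, at 594 TPM summed. Of 8 megakaryocyte markers 8 fell, from 3293 to 9515 TPM summed to 95.4 to 757 TPM. Summed pancreatic acinar markers reached 2488 TPM in E16.5 replicate A, against 225 TPM or less elsewhere. Fewer cells of a type and less RNA per cell cannot be told apart in such samples. The part of these shifts in the results was not tested.

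The TPM values corresponded to whole reads when multiplied by exon length, which gave 23193537 to 26206374 reads in the E16.5 libraries and 13093937 to 22643868 in the E18.5 libraries. Behind the single values of 8 of the 9 genes stood 69 to 14301 reads. Reads could not be recovered for Pcx. Against these, 3 reads correspond to between 0.0507 and 0.434 TPM, and each of the 8 genes was above its own 3-read level in every library. Nothing states that the pools were separate litters, so p-values measure only the spread between these libraries. Without E18.5 replicate B, 13.1% of all genes were called, and results for the 9 genes are given with and without it.

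Of the 9 genes 8 have an entry in the RefSeq promoter table of build GRCm38.p6, and the 250 bases before each start were read. Those of G6pc and Pck1 are shown because these genes encode enzymes at the end and near the start of gluconeogenesis and share a pair of motifs. The motifs searched, on both strands, were a spelling of the cAMP response element, TTACGTNA, and an HNF1 half-site, GTTAAT. Other spellings were not searched, and the windows of the other genes held no match to these 2. The windows are chr11:101367466-101367715 on the plus strand for G6pc and chr2:173152823-173153072 on the plus strand for Pck1. Matches are in capitals.
G6pc: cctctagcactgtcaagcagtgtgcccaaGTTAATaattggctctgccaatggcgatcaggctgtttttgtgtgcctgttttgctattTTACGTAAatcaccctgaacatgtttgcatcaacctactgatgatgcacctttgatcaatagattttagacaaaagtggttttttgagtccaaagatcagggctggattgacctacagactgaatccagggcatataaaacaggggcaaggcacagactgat
Pck1: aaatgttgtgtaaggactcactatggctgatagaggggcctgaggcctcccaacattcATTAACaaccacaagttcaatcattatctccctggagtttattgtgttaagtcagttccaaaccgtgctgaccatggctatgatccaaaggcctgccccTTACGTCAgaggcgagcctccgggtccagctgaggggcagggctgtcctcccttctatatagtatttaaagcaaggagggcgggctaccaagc
In G6pc the element TTACGTAA began at -162 and the half-site GTTAAT at -221, counted from the base before the start as -1. In Pck1 the element TTACGTCA began at -93 and the half-site, read here as its reverse complement ATTAAC, at -192. Of 32851 windows of this length in the table, 0.788% held the first motif, 6.43% the second and 0.0457%, 15 windows, held both. The motifs were chosen after the values of the genes had been seen, and the 2 motifs do not overlap in either window. The spelling TTACGTNA takes in the element of both genes shown, so its absence from other windows and the shares above hold for it alone. A match describes letters only. In GENCODE vM21 Pck1 starts at 173153048 and G6pc at 101367561, both inside the windows printed.

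**Figure D1:**
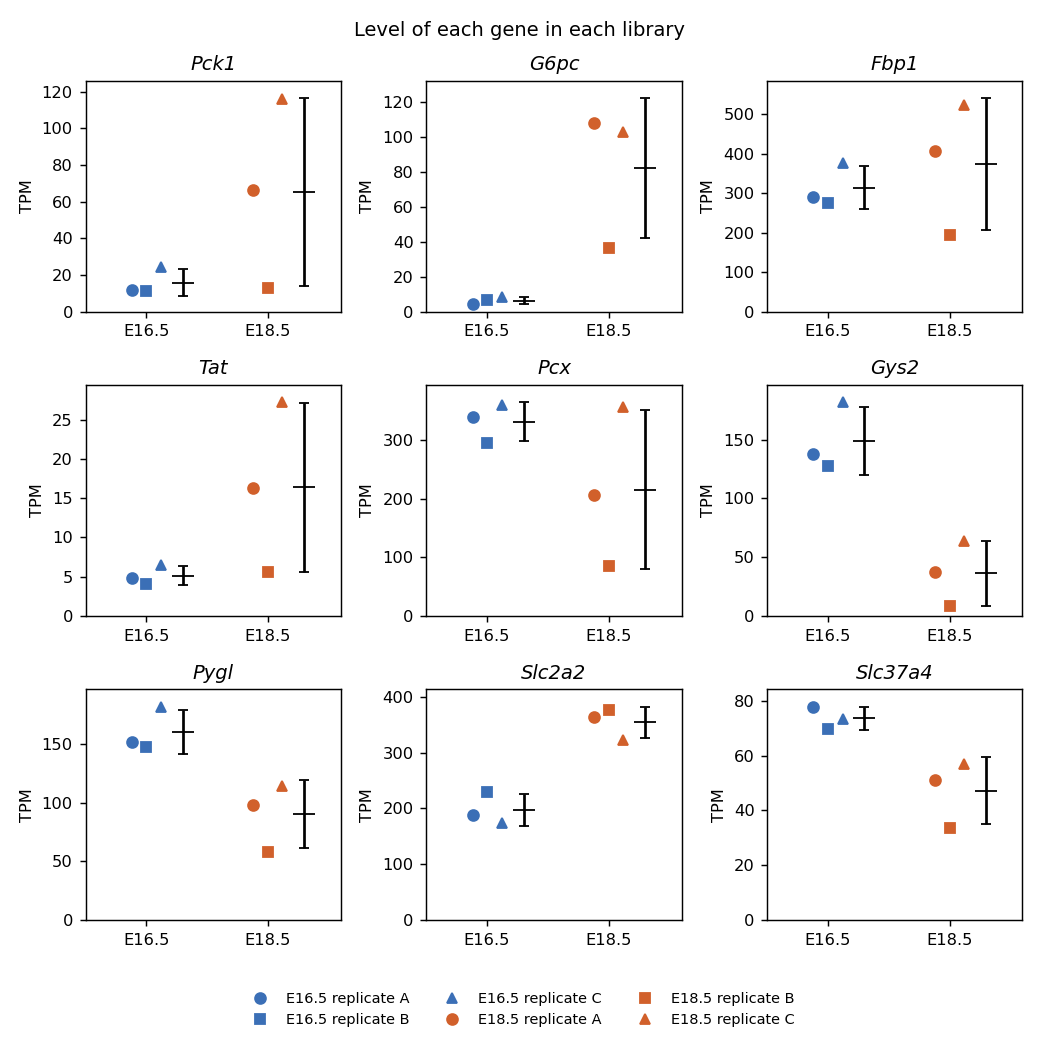
TPM (linear axis from 0) of the 9 genes in each library, with circles, squares and triangles for replicates A, B and C, blue for E16.5 and orange for E18.5, and bars for the mean and SD of 3 libraries. The stages are apart for G6pc, Gys2, Pygl, Slc2a2 and Slc37a4, and the E18.5 square, replicate B, is lowest of its stage in 8 of the 9 panels.

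Gluconeogenesis from pyruvate starts with Pcx, the mitochondrial pyruvate carboxylase that makes oxaloacetate (chr19:4510472-4621752, plus strand, GRCm38, as all gene positions here from GENCODE vM21). Pcx stood at 339, 296 and 361 TPM in E16.5 replicates A, B and C and at 206, 84.7 and 357 TPM in the E18.5 replicates. E18.5 replicates A and B lay below all E16.5 libraries and replicate C lay within them, so the stages overlapped. The log2 fold change was -0.84 (SE 0.47, n = 3 per stage) and did not pass the threshold (limma, adjusted p = 0.192), and relative to the median of all genes it was -1.26. Without E18.5 replicate C it was -1.32 (adjusted p = 0.0447), and without replicate B it was -0.29 (adjusted p = 0.401).

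Pck1 encodes the cytosolic phosphoenolpyruvate carboxykinase, which turns oxaloacetate into phosphoenolpyruvate and is induced by cAMP and glucocorticoids (chr2:173153048-173159273, plus strand). It was measured at 12.1, 11.0 and 24.3 TPM at E16.5 and at 66.4, 13.1 and 116 TPM at E18.5. E18.5 replicate B held a level within the E16.5 range, while the other E18.5 libraries were above it. The mean went from 15.8 ± 7.39 TPM to 65.1 ± 51.4 TPM (SD, n = 3). On the log2 scale the change was 1.60 (SE 0.74; limma, adjusted p = 0.131), 1.19 above the median of all genes. Without E18.5 replicate B it was 2.49 and passed the threshold (adjusted p = 0.0231), in a comparison of 3 libraries with 2.

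Fbp1, fructose bisphosphatase of liver, was among the most abundant of the 9 genes (chr13:62864753-62888282, minus strand). Its levels were 290, 275 and 377 TPM at E16.5 and 406, 195 and 523 TPM at E18.5. E18.5 replicate B was the lowest of all 6 libraries and replicates A and C were the highest. Fbp1 had a log2 fold change of 0.15 (SE 0.35; limma, adjusted p = 0.75), and relative to the median of all genes it was -0.26. The fold change was -0.30 under median-of-ratios scaling, -0.14 without E18.5 replicate C and 0.57 without E18.5 replicate B (adjusted p = 0.0854), so no direction is given for Fbp1.

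G6pc, whose product releases free glucose from glucose-6-phosphate in the endoplasmic reticulum, changed most of the 9 genes (chr11:101367561-101377903, plus strand). It was at 4.40, 6.43 and 8.36 TPM at E16.5 and at 108, 36.2 and 103 TPM at E18.5. No E18.5 library, replicate B included, came as low as any E16.5 library, and the gap between the stages was wider than the range at E16.5. The mean was 12.9-fold higher at E18.5, at 82.2 ± 39.9 against 6.39 ± 1.98 TPM (SD, n = 3). G6pc rose by 3.38 on the log2 scale (SE 0.43; limma, adjusted p = 0.00852), 2.96 above the median of all genes. The exact permutation test gave p = 0.1, the smallest that 3 libraries against 3 allow. G6pc was called in 14 of 14 alternative settings, with log2 fold changes from 2.95 to 3.88, and without E18.5 replicate B the value was 3.88. Among protein-coding genes it moved from above 52.9% of them at E16.5 to above 92.1% at E18.5.

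Tat, tyrosine aminotransferase, starts the breakdown of tyrosine to gluconeogenic fumarate and is a glucocorticoid-induced gene of the perinatal liver (chr8:109990437-109999803, plus strand). Its mean was the lowest of the 9 genes at both stages, although G6pc was lower than Tat in E16.5 replicate A. Its levels were 4.80, 4.10 and 6.52 TPM at E16.5 and 16.4, 5.61 and 27.2 TPM at E18.5. As for Pck1, E18.5 replicate B fell within the E16.5 range and the other E18.5 libraries lay above it. Its log2 fold change of 1.29 (SE 0.50; limma, adjusted p = 0.0869) was 0.87 above the median of all genes. Without E18.5 replicate B it was 1.87 and passed the threshold (adjusted p = 0.0237). The E18.5 replicate B value of Tat rested on 69 reads, the fewest of any value here, which allow 4.37 to 7.1 TPM (95% Clopper-Pearson interval, counting error only).

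Gys2, the liver glycogen synthase that extends glycogen chains from UDP-glucose, fell (chr6:142422613-142473109, minus strand). It stood at 138, 128 and 182 TPM at E16.5 and at 37.4, 8.39 and 63.7 TPM at E18.5. The highest E18.5 library was below the lowest E16.5 library. The mean was 4.09-fold higher at E16.5, at 149 ± 28.8 against 36.5 ± 27.6 TPM (SD, n = 3). Its log2 fold change was -2.38 (SE 0.64; limma, adjusted p = 0.0324; exact permutation p = 0.1), and relative to the median of all genes it was -2.79. It was -1.58 without E18.5 replicate B (adjusted p = 0.0255), and the adjusted p was 0.0692, 0.0612, 0.0926 and 0.0698 without E16.5 replicate A, B or C or E18.5 replicate A.

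Pygl, the liver glycogen phosphorylase that releases glucose-1-phosphate, also fell (chr12:70190811-70231488, minus strand). Its levels were 152, 147 and 182 TPM at E16.5 and 98.1, 58.3 and 114 TPM at E18.5. The stages did not overlap, and the E18.5 libraries kept more of the E16.5 level than for Gys2. The log2 fold change was -0.87 (SE 0.25; limma, adjusted p = 0.0373; exact permutation p = 0.1), and relative to the median of all genes it was -1.29. The fold change was -0.59 without E18.5 replicate B (adjusted p = 0.0484), and the adjusted p was 0.0752, 0.0669, 0.105 and 0.0766 without E16.5 replicate A, B or C or E18.5 replicate A.

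Slc37a4 carries glucose-6-phosphate into the endoplasmic reticulum, where the G6pc product acts on it (chr9:44396852-44402968, plus strand). It was at 77.9, 69.6 and 73.5 TPM at E16.5 and at 50.9, 33.8 and 57.1 TPM at E18.5. The E16.5 libraries lay close together and all above the E18.5 libraries. The log2 fold change was -0.66 (SE 0.20; limma, adjusted p = 0.0423; exact permutation p = 0.1), nearest the threshold of the 5 called genes, and relative to the median of all genes it was -1.08. Leaving out E18.5 replicate B gave -0.44 (adjusted p = 0.0605), and the adjusted p was 0.103, 0.0781, 0.0953 and 0.0836 without E16.5 replicate A, B or C or E18.5 replicate A.

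Slc2a2, through which hepatocytes take up and release glucose, rose (chr3:28697903-28731359, plus strand). It was measured at 188, 230 and 174 TPM at E16.5 and at 363, 377 and 323 TPM at E18.5. The stages did not overlap, and E18.5 replicate B, the lowest E18.5 library for the 8 other genes, was here the highest. At both stages its libraries stood in the order B, A, C, as did the summed cholangiocyte markers, of which Spp1 was the largest part. That sum was 1974, 2496 and 739 TPM in E16.5 replicates A, B and C and 11725, 13944 and 8082 TPM in the E18.5 replicates. The part of these markers in the change of Slc2a2 was not tested. The mean was 1.80-fold higher at E18.5, at 355 ± 28.1 against 197 ± 29.3 TPM (SD, n = 3). The log2 fold change was 0.85 (SE 0.14; limma, adjusted p = 0.0113; exact permutation p = 0.1), only 0.44 above the median of all genes. It was called in 13 of 14 alternatives, with 0.80 without E18.5 replicate B (adjusted p = 0.0329), and was not called under median-of-ratios scaling, at 0.40 (adjusted p = 0.0559).

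**Figure D2:**
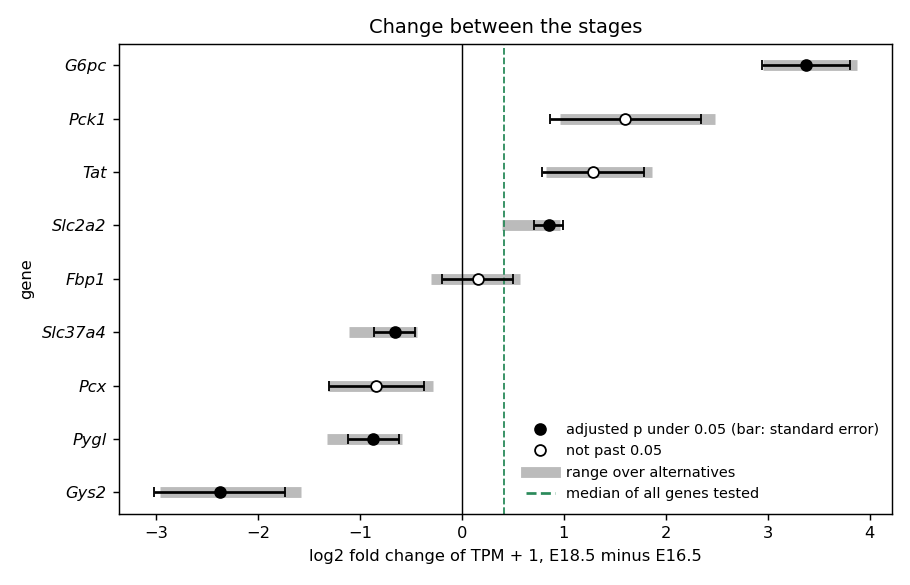
Log2 fold change of TPM + 1 (E18.5 minus E16.5) of each gene as a point with its standard error, filled where the limma adjusted p is under 0.05, with a grey bar for the range over the alternative settings and a dashed line at 0.42, the median of all genes tested. The values run from -2.38 for Gys2 to 3.38 for G6pc, and the grey bar of Fbp1 crosses 0.

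The plot of fold changes shows the 9 genes on both sides of the median of all genes. The glycogen enzymes Gys2 and Pygl, the transporter Slc37a4 and Pcx lay below 0, and G6pc, Pck1, Tat and Slc2a2 above it. The order of the mean levels at E16.5 was Pcx at 332 TPM, Fbp1 at 314, Slc2a2 at 197, Pygl at 160, Gys2 at 149, Slc37a4 at 73.6, Pck1 at 15.8, G6pc at 6.39 and Tat at 5.14. Of neighbours in this order, Pcx and Fbp1, Slc2a2 and Pygl, Pygl and Gys2, and G6pc and Tat overlapped between libraries, and the other pairs did not. At E18.5 the order was Fbp1 at 374 TPM, Slc2a2 at 355, Pcx at 216, Pygl at 90.3, G6pc at 82.2, Pck1 at 65.1, Slc37a4 at 47.2, Gys2 at 36.5 and Tat at 16.4. Every neighbouring pair overlapped at that stage, where the libraries spread more widely.

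The highest E18.5 library exceeded the lowest by 8.83-fold for Pck1, 7.58-fold for Gys2, 4.85-fold for Tat and 4.21-fold for Pcx, against at most 2.20-fold for any of the 9 genes at E16.5. E18.5 replicate B was the lowest of its stage for 8 of the 9 genes and for 20.3% of all genes tested. It was likewise lowest for 12 of the 12 hepatoblast and hepatocyte markers. E18.5 replicate C was highest for 7 of the 9 genes, against 24.5% of all genes tested, and for 10 of the 12 markers. At E16.5 the spread was smaller. Replicate C was highest there for 7 of the 9 genes, against 21.7% of all genes tested, and for 11 of the 12 markers. E16.5 replicate B was lowest for 7 of the 9 genes, against 27.1% of all genes tested. Of the 12 markers, however, 8 were lowest in E16.5 replicate A and 4 in replicate B. These counts describe the libraries, since genes measured in 1 library share its cells.

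The level of each gene was therefore also set against the summed TPM of the 12 hepatoblast and hepatocyte markers in the same library. That sum was lower in every E18.5 library than in any E16.5 library, although only 6 of its 12 markers were called lower, and Alb, the largest part of it, was not called (adjusted p = 0.146). On this scale 81.7% of all genes tested were higher at E18.5 without overlap and 0.828% lower, and the median log2 difference of all genes was 1.89. Of the 9 genes 8 were higher without overlap and Gys2 was lower. Per 1000000 TPM of markers, G6pc went from 23.9, 33.2 and 35.6 at E16.5 to 1194, 805 and 954 at E18.5. All E18.5 libraries, replicate B included, were well above the E16.5 libraries, with a log2 difference of 5.00. Pck1 went from 65.5, 57.0 and 104 to 735, 292 and 1078, and Tat from 26.0, 21.2 and 27.7 to 181, 125 and 253. Their stages, which overlapped in TPM, were apart on this scale, with log2 differences of 3.08 and 2.85.

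Fbp1 was nearly level within each stage on this scale, at 1573, 1420 and 1604 per 1000000 at E16.5 and 4492, 4326 and 4863 at E18.5. Its log2 difference of 1.57 was below the median of all genes, as were those of Slc37a4 at 0.75, Pcx at 0.57 and Pygl at 0.54. Slc2a2 had a log2 difference of 2.27 and reached 8387 per 1000000 in E18.5 replicate B, the largest value of the 9 genes. Gys2 was at 749, 658 and 774 per 1000000 at E16.5 and at 414, 187 and 592 at E18.5. Its log2 difference was -1.02, and it was thus lower at E18.5 also relative to these markers. The exact permutation p was 0.1 for each of the 9 genes, the smallest possible.

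**Figure D3:**
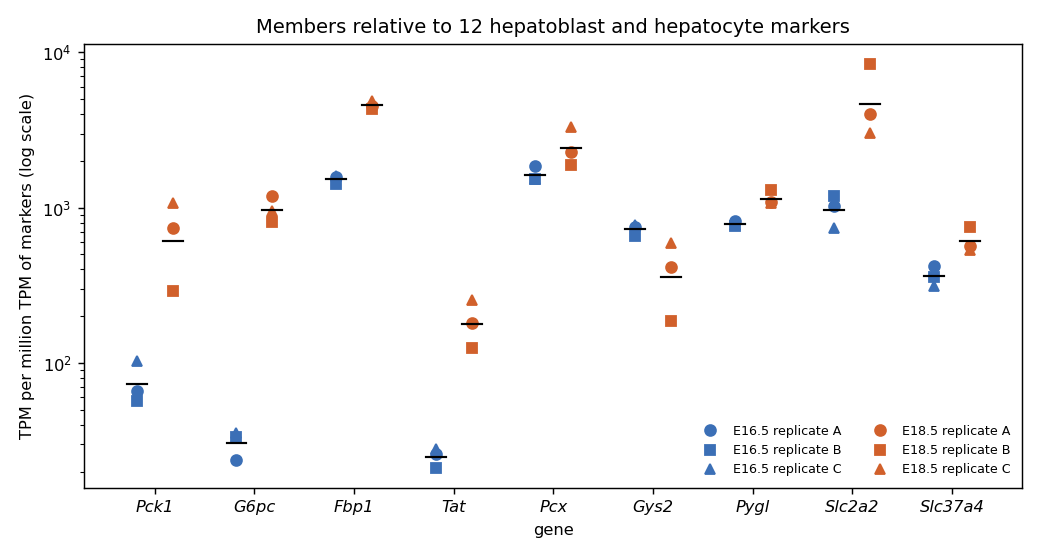
TPM of each gene per 1000000 TPM of the 12 summed hepatoblast and hepatocyte markers (log axis) in each library, blue for E16.5 and orange for E18.5, with circles, squares and triangles for replicates A, B and C and bars for geometric means. The stages are apart for all 9 genes, higher at E18.5 in 8 and lower in Gys2, and the largest shifts are those of G6pc, Pck1 and Tat.

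TPM ratios within a library were formed for 4 pairs of the 9 genes, and 3 that act on a shared metabolite or route are given. The pairs were picked once the values were known, and the ratios were not tested. G6pc over Slc37a4, the enzyme over the transporter that supplies it, was 0.0564, 0.0924 and 0.114 at E16.5 and 2.12, 1.07 and 1.80 at E18.5. Transcripts of the enzyme were thus fewer than those of the transporter in every E16.5 library and more in every E18.5 library. Gys2 over Pygl, synthesis over breakdown of glycogen, was 0.910, 0.866 and 1.0 at E16.5 and 0.381, 0.144 and 0.556 at E18.5. Both genes fell, and every E18.5 ratio was below every E16.5 ratio. Pck1 over Pcx, consecutive steps of gluconeogenesis, was 0.0356, 0.0373 and 0.0674 at E16.5 and 0.322, 0.155 and 0.325 at E18.5.

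For 6 of the 9 genes the liver form was compared with a paralog that is expressed in other tissues, as a ratio within each library. The plain TPM ratio does not depend on scaling between libraries, while the tested log2 ratio of TPM + 1 does for low genes. G6pc over the widespread G6pc3 gave TPM ratios of 0.200, 0.419 and 0.480 at E16.5 and of 5.90, 1.66 and 5.76 at E18.5. G6pc was the lesser transcript in every E16.5 library and the greater in every E18.5 library. The log2 ratio of TPM + 1 differed by 3.29 between the stages (exact permutation p = 0.1, adjusted over 6 pairs 0.2). G6pc3 itself lay between 15.3 and 22.0 TPM in the E16.5 libraries and between 17.8 and 21.8 TPM in the E18.5 libraries, with a log2 fold change of 0.09 that turned negative in some alternatives.

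Gys2 over the muscle form Gys1 gave TPM ratios of 5.29, 5.90 and 8.01 at E16.5 and 1.57, 0.402 and 2.53 at E18.5. The liver form was the major one in every E16.5 library, and in E18.5 replicate B the muscle form was. The log2 ratio differed by -2.37 (exact permutation p = 0.1, adjusted 0.2). Gys1 had a log2 fold change of -0.01 and shares 6.47% of its exon bases with Ruvbl2 on the other strand. Pygl over the brain form Pygb went from 1.06, 1.07 and 1.23 to 0.738, 0.422 and 0.957, so the liver form exceeded the brain form in the E16.5 libraries only. The log2 ratio differed by -0.74 (exact permutation p = 0.1, adjusted 0.2).

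For the remaining pairs the stages overlapped. Pck1 over the mitochondrial Pck2 gave 0.383, 0.349 and 1.73 at E16.5 and 2.20, 0.254 and 3.32 at E18.5 (exact permutation p = 0.6). Slc2a2 over Slc2a1, the widespread glucose transporter GLUT1, gave 2.25, 2.59 and 2.13 at E16.5 and 2.48, 2.97 and 2.59 at E18.5 (exact permutation p = 0.3). Slc2a1 itself rose by 0.64 on the log2 scale (limma, adjusted p = 0.0123), a call lost under median-of-ratios scaling and without E18.5 replicate A. Fbp1 exceeded the muscle form Fbp2 by 28.5-fold to 510-fold, and the stages overlapped (exact permutation p = 0.3).

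**Figure D4:**
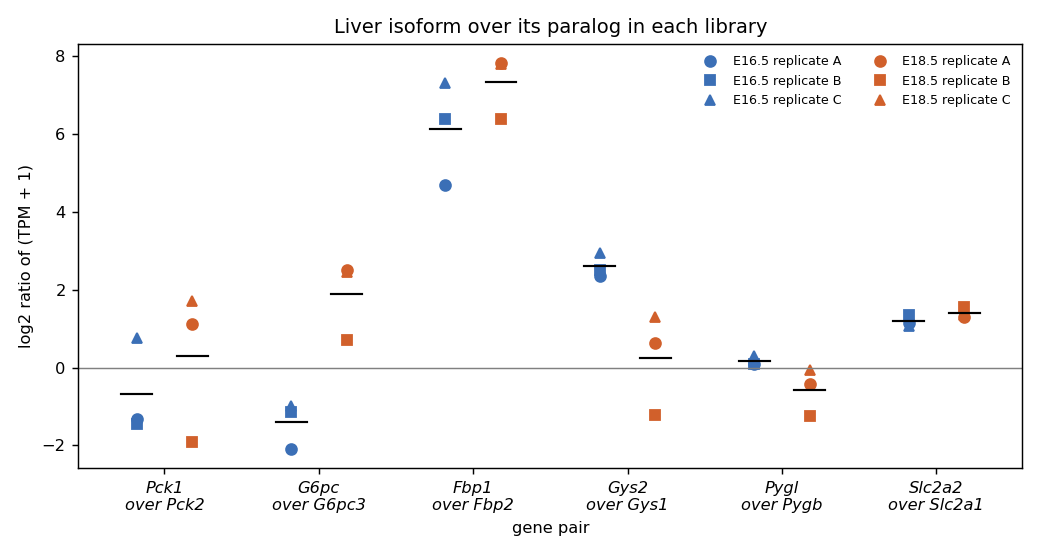
Log2 ratio of TPM + 1 of the liver form over its paralog in each library, blue for E16.5 and orange for E18.5, with circles, squares and triangles for replicates A, B and C and bars for stage means. The stages are apart for G6pc over G6pc3, Gys2 over Gys1 and Pygl over Pygb, and overlap for the other 3 pairs.

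Genes with a pattern close to a called gene were sought among 11383 protein-coding genes whose mean reached 5 TPM, by the Euclidean distance between their centred log2(TPM + 1) profiles over the 6 libraries. Nearest to G6pc were Prok1, a secreted prokineticin, at a distance of 1.08, Ugt1a1, the bilirubin glucuronosyltransferase, at 1.39, and Wnt9a, at 1.51. Prok1 was at 0.396 to 0.735 TPM at E16.5 and reached 17.0 to 26.0 TPM at E18.5. Nearest to Gys2 was Apoa1, the main protein of high-density lipoprotein and one of the 12 hepatoblast and hepatocyte markers, at 0.25, followed by Uroc1, urocanase of histidine breakdown, at 0.32. Nearest to Pygl was the complement gene C8a at 0.16, and nearest to Slc2a2 was Mr1 at 0.07. Nearest to Slc37a4 was Hnf4a, a nuclear receptor of the hepatocyte lineage, at 0.14. Likeness over 6 libraries describes these libraries only.

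Around the 9 genes, 128 further genes of 5 lists were examined, and 124 of them were tested. Of these 45 were called, which is 36.3% against 31.2% of all genes, with 25 higher and 20 lower and a median log2 fold change of 0.06. Under median-of-ratios scaling 42 were called, with 7 higher and 35 lower, so the split depends on scaling. Of the 26 called genes named here, 6 were called in every alternative, namely Ldha, Pgk1, Slc2a3, Gckr, Kmo and Klf9. Without E18.5 replicate A only 10 of the 124 genes were called, and 11 of the 12 named rises and 9 of the 14 named falls lost their call. Under median-of-ratios scaling 9 of the 12 named rises lost it and the named falls kept it.

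**Figure D5:**
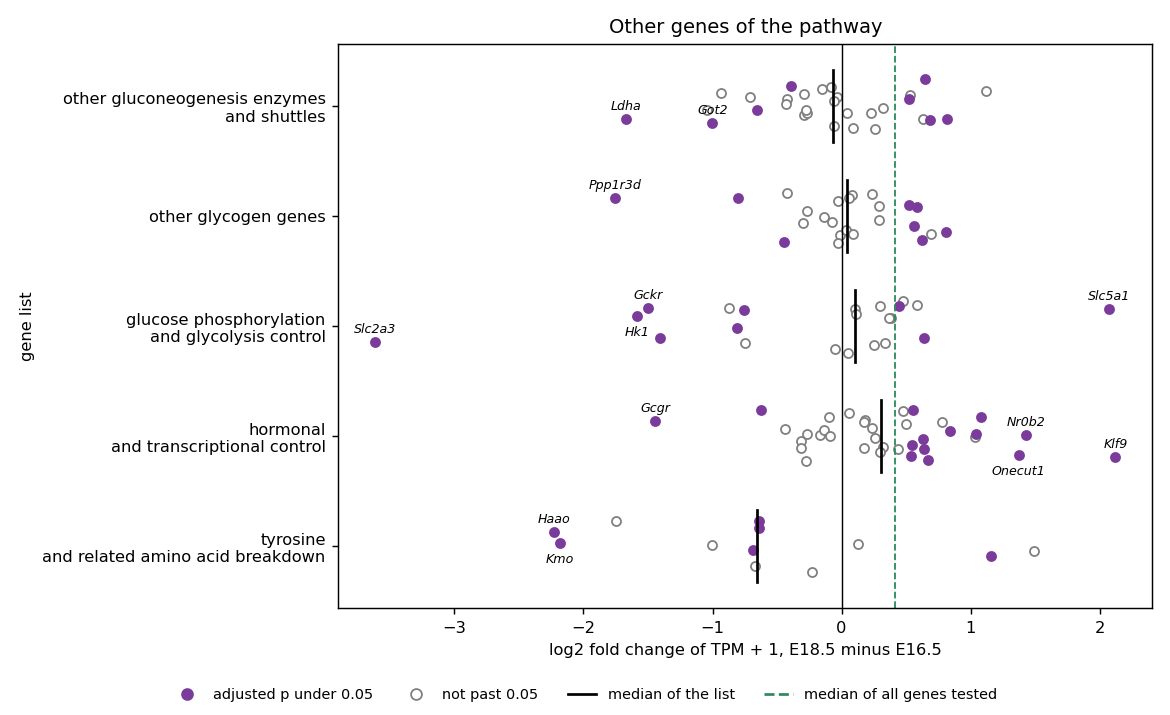
Log2 fold change of TPM + 1 (E18.5 minus E16.5) of the 124 tested genes of 5 lists, filled where the limma adjusted p is under 0.05, with a black bar for each list's median and a dashed line at 0.42, the median of all genes tested. The medians of all 5 lists lie left of the dashed line, lowest for breakdown of tyrosine and related amino acids at -0.66.

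Of 30 tested enzymes and shuttles of gluconeogenesis other than the 9 genes, 4 were called higher and 4 lower, with a median of -0.07. The share called was 26.7%, against 31.2% of all genes tested. Ldha, the lactate dehydrogenase subunit that interconverts lactate and pyruvate, fell from between 806 and 1077 TPM to between 188 and 412 TPM (log2 fold change -1.67). Got2, the mitochondrial aspartate aminotransferase, fell by 1.0 and Pgk1, phosphoglycerate kinase, fell by 0.65 on the log2 scale. Sds, which makes pyruvate from serine, rose by 0.82, and the alanine aminotransferases Gpt2 and Gpt rose by 0.68 and 0.64. The calls of these 3 amino acid enzymes were lost under median-of-ratios scaling, and those of Gpt2 and Gpt were held in 6 of 14 and 4 of 13 alternatives.

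Of 24 tested glycogen genes 5 were called higher and 3 lower, 33.3% called against 31.2% of all genes tested, with a median of 0.05. Ppp1r3d, a subunit that brings protein phosphatase to glycogen, fell by 1.75 on the log2 scale. Its levels were low, between 4.12 and 9.63 TPM at E16.5 and between 0.85 and 1.92 TPM at E18.5. Pgm1, which links glucose-1-phosphate to glucose-6-phosphate, fell by 0.80. Both calls were lost without E18.5 replicate A, and that of Pgm1 also without E16.5 replicate C. Phkg2, the liver catalytic subunit of phosphorylase kinase, rose by 0.81, Ppp1r3c by 0.62 and Phka1 by 0.58, and none of the 3 was called under median-of-ratios scaling. The call of Ppp1r3c was held in 5 of 13 alternatives. Ugp2, which makes the UDP-glucose used by Gys2, had the highest mean of the list over the 6 libraries, though not at either stage alone, with a log2 fold change of -0.42 (adjusted p = 0.0889).

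Of 22 tested genes of glucose phosphorylation and control of glycolysis 3 were called higher and 6 lower, with a median of 0.11. The share called was 40.9%, against 31.2% of all genes tested. Slc2a3, the glucose transporter GLUT3, fell from 89.3, 56.7 and 151 TPM to 4.40, 14.4 and 4.21 TPM (log2 fold change -3.61; limma, adjusted p = 0.0089). The order of its E16.5 libraries was that of the summed megakaryocyte markers, which were 5715, 3293 and 9515 TPM there. At E18.5 that sum was 95.4, 757 and 222 TPM. Replicate B was highest for both, but replicates A and C stood in opposite order. The part of such cells in the change of Slc2a3 was not tested. Hk1, a hexokinase of most tissues, fell by 1.59 and had the same order at E16.5. Gckr, a liver regulator of glucose phosphorylation, fell by 1.50. Slc5a1, the sodium-coupled glucose transporter SGLT1, rose by 2.07, from between 0.489 and 4.46 TPM to between 8.94 and 13.7 TPM. Its call was lost without E18.5 replicate A or B. Pfkfb3, which sets the level of an activator of glycolysis, rose by 0.45, a call held in 4 of 14 alternatives.

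Of 36 tested regulators 12 were called higher and 2 lower, with a median of 0.31. The share called was 38.9%, against 31.2% of all genes tested, of which 26% were called higher and 5.22% lower. Klf9, a transcription factor induced by glucocorticoids and thyroid hormone, rose from between 7.94 and 11.3 TPM to 45.3, 38.6 and 53.6 TPM (log2 fold change 2.12; limma, adjusted p = 0.00465). All E18.5 libraries were above all E16.5 libraries, and replicate B stood apart less than it did for Pck1 or Tat. Nr0b2, the corepressor SHP, rose by 1.43, from low levels of 1.36 to 3.91 TPM, or 12 to 38 reads, at E16.5. At E18.5 it was at 6.22 to 9.14 TPM. Onecut1, a factor of hepatobiliary development, rose by 1.37. The call of Nr0b2 was held in 9 of 14 alternatives and lost, among others, under median-of-ratios scaling, and Onecut1 was not called without E18.5 replicate A. Gcgr, the glucagon receptor, fell by 1.44, from between 25.8 and 35.6 TPM to between 6.27 and 16.5 TPM, a call lost without E16.5 replicate C or E18.5 replicate A. Hnf4a, the most abundant of the list, fell by 0.62, from 252, 247 and 255 TPM to 173, 126 and 197 TPM, a call held in 8 of 14 alternatives.

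Of 12 genes for the breakdown of tyrosine and related amino acids 1 was called higher and 5 lower, with a median of -0.66. The share called was 50%, against 31.2% of all genes tested. Haao and Kmo, of the kynurenine route of tryptophan, fell by 2.23 and 2.18 on the log2 scale, and the call of Haao was held in 7 of 13 alternatives. Qdpr, which regenerates the cofactor tetrahydrobiopterin, fell by 0.69. Pcbd1, of the same cofactor cycle and with the highest mean of the list over the 6 libraries, fell by 0.64 (adjusted p = 0.0154). Hpd, the step after Tat and named here after its values were seen, was at 230, 197 and 306 TPM at E16.5 and 143, 42.6 and 278 TPM at E18.5, above Tat in every library.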

How the data were processed

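Per the study's methods and the labels, the authors checked reads with FastQC 0.11.7, trimmed them with Trimmomatic, aligned them to GRCm38 with HISAT2 2.1.0, counted them per gene with HTSeq 0.5.4p3 on GENCODE vM15 and turned these counts into TPM. Values as deposited are TPM of 52550 genes in 6 libraries and sum to 1000000 in each. Mitochondrial genes are listed at 0. TPM share 1 total, so a rise of abundant transcripts lowers all others. Names, positions and exon lengths came from GENCODE vM21, which held 52403 of the identifiers, 49035 of them in the same version. Multiplying TPM by exon length gave reads that were whole within 0.01. They served for depth and intervals only, and intervals cover counting error. Reads of no library pair of a stage agreed within sampling noise.

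Libraries were assigned to stages from the labels. E18.5 was set against E16.5 in limma 3.58.1 under R 4.3.3 (lmFit, trended eBayes) on log2(TPM + 1), which understates the change of low genes, for genes whose mean reached 1 TPM, with Benjamini-Hochberg adjustment. The fit was tested on simulated data. Exact permutation tests were two-sided (scipy 1.17.1, Python 3.11.15). Alternatives were a pseudocount of 0.1, no filter or a minimum mean of 5 TPM, quantile normalization, median-of-ratios scaling, robust eBayes, a replicate block, limma voom on recovered reads and leaving out each library.

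Named were the 9 genes, 6 paralogs, of each of 5 lists the 3 largest rises and 3 largest falls among called genes whose stages did not overlap and the gene with the highest mean, and the genes nearest in profile to called genes. Some genes that this rule names are not reported here. Other genes are said to have been chosen after their values were seen. The genes and lists were chosen with earlier results of these data known. Among 11 marker lists, endothelial markers summed to 93.5 to 154 TPM at E16.5 and 95.0 to 187 TPM at E18.5, mesenchymal markers to 105 to 235 TPM and 233 to 668 TPM, leukocyte markers to 84.5 to 131 TPM and 83.5 to 159 TPM, pancreatic endocrine markers to 4.76 to 42.6 TPM and 19.3 to 86.0 TPM, kidney proximal tubule markers to 2.42 to 4.83 TPM and 4.96 to 6.35 TPM, and small intestine markers to 19.4 to 64.8 TPM and 34.5 to 50.7 TPM.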

Additional observations from a re-analysis of the deposited data

How the results depend on the processing

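With no filter on low values 4282 genes were called, with median-of-ratios scaling 3862 and with quantile normalization 3796, against 7000, and of the 9 genes 2 were called with no filter and 3 with quantile normalization, against 5. Leaving out 1 library gave 1472 to 5686 genes called in all, 2 to 6 of the 9 genes and 10 to 45 of the other pathway genes, each time lowest or joint lowest without E18.5 replicate A. Fbp1 turned to -0.30 with median-of-ratios scaling and ranged from -0.14 to 0.57 over the fits without 1 library. G6pc3 turned to -0.35 with median-of-ratios scaling, -0.30 with quantile normalization and -0.053 with limma voom on recovered reads, and ranged from -0.026 to 0.22 without 1 library, and Gys1 ranged from -0.064 to 0.066. The cause was not tested. The other 8 of the 9 genes kept their direction in every alternative run. Limma voom gave no value for Pcx, whose reads were not recovered.

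Relative to the marker sum, Fbp1 differed by 1.67 without Alb and by 1.22 without Alb and Afp, where G6pc differed by 4.65, Slc37a4 by 0.40 and Pygl by 0.19. The other 67 of 72 such values, and all 42 of the isoform ratios, moved by less than 1 SD. Deviations from the stage mean correlated at -0.04, 0.08 and 0.14 between libraries of the letters A, B and C. Between libraries of different letters the correlations ran from -0.15 to 0.08. Whether a letter marks a shared litter or sort is not stated, and so few libraries cannot settle it. With a replicate block 7314 genes were called, 6 of them among the 9 genes, with Tat at an adjusted p of 0.0477 in limma, and 52 other pathway genes. With 3 libraries per stage the exact tests could not go below 0.1, and fits without 1 library have fewer samples. Depth did not place any of the 8 genes with recovered reads at its 3-read level.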

Other observations

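The genes nearest in profile to Pck1 and Tat, which were not called, were looked up after the values had been seen. Nearest to Pck1 were Gem, a small GTPase, at a distance of 0.26 and Nr4a1, an orphan nuclear receptor and immediate early gene, at 0.46. Nr4a1 stood at 19.7, 14.0 and 26.2 TPM at E16.5 and at 83.2, 14.4 and 134 TPM at E18.5, so its E18.5 replicate B, like that of Pck1, lay within the E16.5 range. Nearest to Tat were Fosl2, an AP-1 subunit, at 0.23 and Cyp2e1, a cytochrome P450 that rises in liver around birth, at 0.38. Cyp2e1 stood at 18.3, 14.9 and 18.8 TPM at E16.5 and at 62.0, 19.4 and 77.4 TPM at E18.5, with replicate B again the lowest of its stage.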
